A study of Rattus norvegicus with 18 samples.

Results

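The genes described here are those that the array annotation named Zfp or Znf followed by a number, apart from Zfp36, Zfp36l1 and Zfp36l2, which act on mRNA decay. The rule found 183 genes among the 35287 gene names on the array, read by 245 probes. The brightest probe of each gene over the 18 arrays was taken. The question was whether this large family of mostly repressive factors fell as a group in the first hours after nerve injury.

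A C2H2 zinc finger is a short fold held by a zinc ion between a pair of cysteines and a pair of histidines, and strings of such fingers, joined by conserved linkers, read DNA sequence. Many of these proteins also carry a KRAB domain, which recruits the corepressor Trim28 (KAP1) and, through it, histone deacetylases, the methyltransferase Setdb1 and HP1 proteins that compact chromatin. KRAB zinc finger genes lie in clusters that grew by duplication and are best known for silencing transposable elements and holding imprints, while members without KRAB include activators and proteins that bind RNA or ribosomes.

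The samples were proximal sciatic nerve segments of adult male Sprague-Dawley rats of 180-220 g, taken 0, 0.5, 1, 3, 6 or 9 h after a length of the left sciatic nerve had been resected under anaesthesia, with 3 arrays per time-point. The labels name no transgene, further treatment or second strain, and the 0 h arrays were the controls for all later time-points. The labels and the methods do not say whether an array held the RNA of 1 rat or of several, so the P-values measure the spread between these arrays. Nerve holds Schwann cells, fibroblasts, endothelium, axons and invading leucocytes, and in such bulk tissue fewer cells of a type and less RNA per cell cannot be told apart.

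Of the 18 arrays, between 65.9% and 93.5% of the probes were well above background, the most on 6 h array 1, and replicates of a time-point correlated at 0.958 to 0.993. All 14 Schwann cell markers were measured. The summed level of 11 skeletal muscle markers spread from 138 to 1918 times the 75th percentile on the 0 h arrays, while the 1 h arrays ranged from 6.84 to 123 and the 9 h arrays from 6.17 to 180, with none of the markers called, and the part of such uneven muscle in the results below was not tested. Of 9 tested neutrophil markers 3 were higher already at 0.5 h and at 1 h and 6 from 3 h on, their summed level going from 0.854 to 1.35 at 0 h through 2.35 to 4.78 on the 0.5 h arrays up to 17.3 to 20.7 at 9 h. The 0 h and 0.5 h arrays were scanned on day 1, all arrays from 1 h to 6 h and the first 2 of the 9 h arrays on day 2 and 9 h array 3 on day 3, and every slide held 1 time-point. Scan day and time after injury therefore cannot be told apart in the comparisons of 1 h to 9 h with 0 h, whereas 0.5 h against 0 h, and the later arrays other than 9 h array 3 against 1 h, lie within a day.

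Of the 183 genes, 174 stood well above background on every array of some time-point and were tested, 146 of them on all 18 arrays and 28 on fewer. The 9 that were not tested were Zfp112, Zfp352l, Zfp385a, Zfp385b, Zfp518b, Znf250, Znf488, Znf541 and Znf804a. Znf488, known as an oligodendrocyte factor, was among these dim genes. The tested members sat close to the middle of the range of levels, with a median percentile of 49.2 among the tested genes. The current RefSeq annotation held 180 of the 183 genes, 120 by accession, 49 by symbol and 11 by an older symbol. Some carry names that show other functions, such as Zfp259, now Zpr1, Znf294, now the ribosome quality control ligase Ltn1, and Zfp364, now the ubiquitin ligase Rnf115. Zfp36l3, a rodent member of the mRNA decay family, matched the rule and stays in the counts.

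Since fingers are repeated within and between these proteins, the probes themselves matter. The best ungapped match of a member's probe with that of another member covered a median of 28 of its 60 bases and at most 40. Translated in an open frame, 26 of the 183 probes held a linker or a stretch of a finger, and 4 of these are shown because they belong to genes whose changes are described below. Capitals mark the bases that code for the finger stretch or linker, and the positions are those of the files on rn4.
Zfp51, chr1:59382425-59382484, plus strand: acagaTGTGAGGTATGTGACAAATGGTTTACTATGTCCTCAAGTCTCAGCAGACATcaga
Zfp105, chr8:127668930-127668989, plus strand: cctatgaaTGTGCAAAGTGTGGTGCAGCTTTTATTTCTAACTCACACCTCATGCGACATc
Zfp2, chr10:36465826-36465888, minus strand: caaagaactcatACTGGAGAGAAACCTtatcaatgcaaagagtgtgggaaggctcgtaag
Znf787, chr1:66205126-66205185, plus strand: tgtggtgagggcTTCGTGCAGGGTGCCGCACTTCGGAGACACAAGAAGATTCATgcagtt
The probes of Zfp51, Zfp105 and Znf787 show 1 finger stretch each and that of Zfp2 the linker between fingers. The closest probe of another member matched that of Zfp2 at 38 bases, that of Zfp51 at 36, that of Zfp105 at 35 and that of Znf787 at 33.

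Over the time-points 56 of the 174 tested members changed, or 32.2%, where 34.6% of all 27201 tested genes did. A gene was called, in limma's moderated F-test or in its contrast of 2 time-points, where P was under 0.01 and, adjusted over all probes by Benjamini-Hochberg, under 0.05. The median log2 change of the members against 0 h at 0.5, 1, 3, 6 and 9 h was -0.06, -0.00, -0.08, -0.02 and -0.03, beside 0.00, 0.02, 0.00, 0.01 and 0.01 for all tested genes. Over the 146 members detected on all 18 arrays the medians were further down, at -0.07, -0.04, -0.13, -0.05 and -0.10, beside -0.02, -0.01, -0.03, -0.06 and -0.05 for the genes detected everywhere, and over the 28 members that passed on fewer arrays they ran from 0.17 to 0.58, beside 0.21 to 0.49. Over the 174 members together the median lay below that of all genes each time, by -0.06, -0.02, -0.08, -0.04 and -0.04, and no test of this difference was made. The order was not stable at 6 h, where the members' median was the higher one over the 146 members and the genes detected on all 18 arrays (-0.05 beside -0.06), with the mean of the probes of a gene (0.07 beside 0.03), with normexp background correction (-0.03 beside -0.04) and without 0 h array 2 (0.0285 beside 0.0259). The same held at 1 h with the mean of the probes (0.0303 beside 0.0275) and without 1 h array 2 (0.00869 beside 0.00749). Without 6 h array 1, array 2 or array 3 the members' median at 6 h was -0.08, 0.01 and 0.01. Over all 183 members without a filter the medians were -0.03, 0.00, -0.07, -0.00 and -0.02, where those of all genes were 0.10, 0.11, 0.09, 0.15 and 0.01. With each array scaled to its median, the members' medians lay between -0.21 and -0.15 and those of all genes between -0.16 and -0.09, and with normexp background correction the medians at 3 h were 0.42 and 0.44. The 5 comparisons share the 0 h arrays, so they are not independent of each other.

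**Figure D1:**
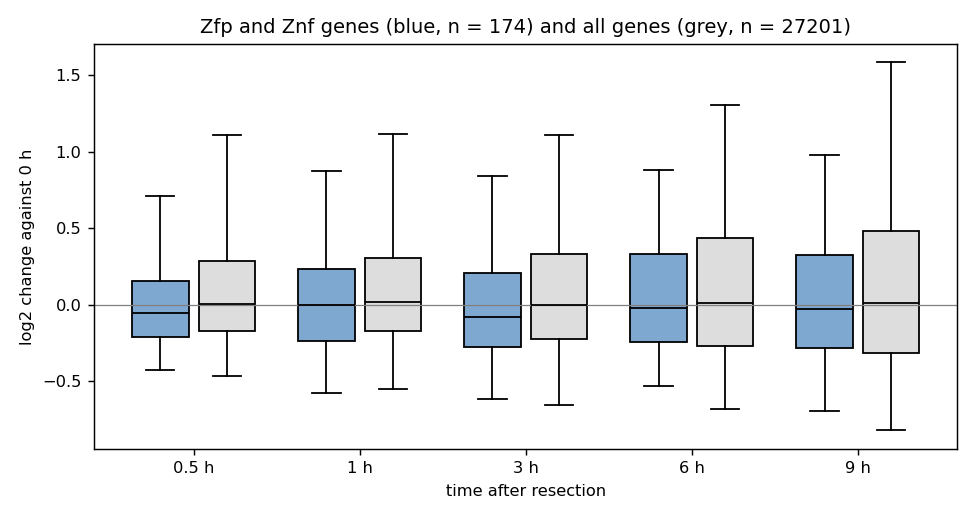
Box plots of the log2 change against 0 h (vertical axis) at each later time-point for the 174 tested Zfp and Znf genes (blue) and all 27201 tested genes (grey). Lines are medians, boxes quartiles and whiskers the 5th and 95th percentiles; the medians of the members lie between -0.08 and -0.00, and their upper whiskers lie below those of all genes.

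Over the 146 members well above background everywhere, the median deviation from the 0 h mean of each gene was -0.08, 0.04 and 0.04 on the 0 h arrays. It was -0.10, -0.06 and -0.08 on the 0.5 h arrays, where all genes gave -0.02, -0.03 and -0.02, the members' median being the lower one on each of these arrays. On the 3 h arrays it was -0.05, -0.18 and -0.10 beside -0.01, -0.06 and -0.02, with array 2 the lowest of the series. The 1 h arrays gave -0.02, -0.09 and -0.07 beside 0.03, 0.01 and -0.07 for all genes. The 6 h arrays gave -0.00, -0.09 and -0.12 beside -0.01, -0.08 and -0.09, the members being the higher ones on array 1. On the 9 h arrays the members lay between -0.10 and -0.07. For all genes these arrays lay between -0.08 and -0.04.

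Lower calls grew in number from each time-point to the next, and higher calls from 1 h on. At 0.5 h, 4 members were lower than at 0 h and 4 higher (1.72% and 4.27% of all genes). At 1 h, 13 were lower and 3 higher (2.04% and 3.59% of all genes). The 3 h arrays gave 16 lower and 9 higher members, beside 6.85% and 7.16% of all genes. By 6 h, 19 members were lower and 12 higher, beside 13% and 12% of all genes. By 9 h the members called lower numbered 24 and those called higher 14, beside 15.4% and 15.8%. As shares of the 174 members, the lower calls came to 2.30%, 7.47%, 9.20%, 10.9% and 13.8%, and the higher calls to 2.30%, 1.72%, 5.17%, 6.90% and 8.05%. The share of members called lower was thus above that of all genes up to 3 h and below it from 6 h on, and the share called higher was below it at all 5 time-points. Of these orders for the lower calls, the one at 1 h held under the 11 alternatives fitted there and with each array left out, while scan day as a block could not be fitted there. That at 0.5 h, on 4 members, turned under 4 of 12 alternatives and with 12 of the 18 arrays left out singly. At 3 h the members' share was the lower one with the mean of the probes of a gene (5.75% beside 6.20%), in the fit on 6 arrays (1.72% beside 2.67%), without 3 h array 2 (2.87% beside 3.11%) and without 0 h array 3 (5.17% beside 5.19%), and at 6 h it was the higher one with array weights (17.2% beside 15.7%). The orders also varied with the level of signal, when all tested genes were cut into 3 equal groups by mean level. Among the bright genes the lower calls at 3 h were 20% of the members and 10.1% of all genes, but among those of middle level 4.62% and 7.99%. At 0.5 h they were 2% and 3.09% among the bright genes, and at middle level they were 13.8% and 13.5% at 6 h and 16.9% and 16.0% at 9 h. At 1 h the members' share was the higher one in all 3 groups, at 5.08% beside 0.838% among dim genes, 9.23% beside 3.15% at middle level and 8% beside 2.12% among bright ones. The order at 9 h turned under 6 of 11 alternatives. Lower calls there came to 17.8% of the members and 16.7% of all genes with quantile normalization, 17.8% and 16.5% with the deposited matrix, 22.4% and 21.0% with scaling to the median, 23.0% and 22.1% with array weights, 6.32% and 5.81% with normexp background correction, and 12% and 11.4% without a filter on dim probes. At 3 h the share called higher was above that of all genes with quantile normalization, 6.32% beside 6.20%, with the deposited matrix, 6.32% beside 6.14%, and with normexp background correction, 4.02% beside 3.63%.

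**Figure D2:**
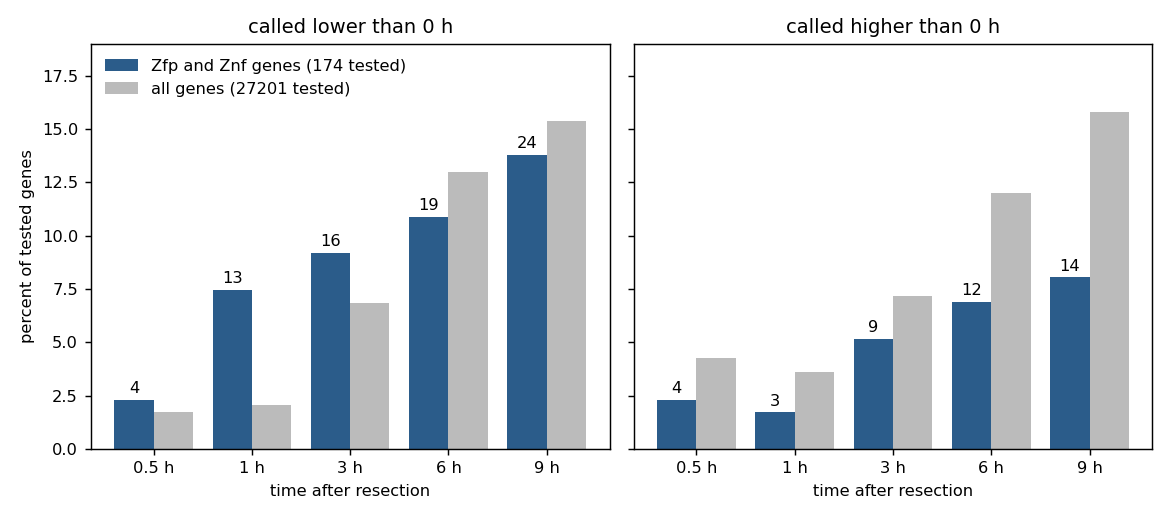
Share of tested genes called lower (left) and higher (right) than at 0 h, in percent, at each time after resection, for Zfp and Znf genes (blue, with their number above the bar) and all genes (grey). At 1 h 13 members were lower, 7.47% against 2.04% of all genes, whereas at 9 h 14 were higher, 8.05% against 15.8%.

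These counts leaned on single arrays and on the scaling. The share of all genes called moved with them. Without 0 h array 2 the lower calls from 0.5 h to 9 h were 0, 6, 8, 10 and 16 (0.425%, 0.806%, 3.31%, 9% and 11.9% of all genes), without 0 h array 3 they were 0, 6, 9, 12 and 16 (0.964%, 1.1%, 5.19%, 10.6% and 12.6%), without 3 h array 2 those at 3 h were 5 (3.11%), without 6 h array 2 or array 3 those at 6 h were 11 (10.2% and 9.96%), and without 9 h array 3 those at 9 h were 16 (12.1%). The higher calls at 9 h were 9 without 0 h array 1 (12.5%) and 8 without 9 h array 3 (12%). Those at 1 h were 7 without 0.5 h array 3 (4.25%) and 5 without 1 h array 2 (3.21%), 3 h array 3 (3.92%) or 9 h array 3 (5.59%). At 0.5 h, over all arrays left out in turn, 0 to 8 were lower and 1 to 5 higher, beside 0.342% to 2.58% and 1.56% to 6.04% of all genes. Scaling to the median in place of the 75th percentile shifted the median of all genes by -0.16 (0.5 h), -0.15 (1 h), -0.09 (3 h), -0.14 (6 h) and -0.17 (9 h). Relative to 0 h it gave 2 members higher beside 14 lower for 0.5 h, 10 beside 29 for 6 h and 11 beside 39 for 9 h. Of all genes 4.98%, 16.8% and 21.0% were lower at these times under that scaling, where the members' shares were 8.05%, 16.7% and 22.4%. Higher were 2.64%, 8.23% and 11.2% of all genes and 1.15%, 5.75% and 6.32% of the members. Quantile normalization gave 3 members higher beside 7 lower for 0.5 h, where 2.64% and 2.12% of all genes were.

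In all, 42 members were lower and 19 higher than at 0 h at some time-point, Zfp445, an imprint-keeping factor, in both directions, and 114 of the tested members at none. These were 24.1%, 10.9% and 65.5% of the members, where 21.8% of all genes were lower at some time-point, 21.2% higher and 57.5% never called. The 3 arrays of 9 h all lay below the 3 of 0 h for 48 members and all above them for 45, or 27.6% and 25.9%, where 25% and 28.6% of all genes did so. At 0.5 h this held for 42 members below and 22 above, 24.1% and 12.6% beside 14.7% and 18.4% of all genes.

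The 13 members lower at 1 h were Zfp105, Zfp111, Zfp12, Zfp157, Zfp192, Zfp354a, Zfp455, Zfp472, Zfp51, Zfp53, Zfp9, Znf287 and Znf503. Their median log2 change, which the selection fixed as negative, was -0.64 at 1 h. At 0.5 h, where only Zfp192 among them was called, it was -0.21, and from 3 h to 9 h it was -0.18, -0.23 and -0.34 in turn. Compared with 1 h, 6 of the 13 were higher by 3 h, 9 by 6 h and 6 by 9 h, comparisons that share the 1 h arrays with the choice of the 13.

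Zfp192, a SCAN and KRAB zinc finger gene now named Zkscan8, fell most. Its signal was 6.73%, 6.72% and 8.25% of the 75th percentile on the 0 h arrays and 3.09%, 3.33% and 3.83% at 1 h. All 3 arrays of 1 h lay below every other array of the series, and those of 0 h above every other one. The log2 change was -1.08 ± 0.14 (SE, n = 3 and 3, adjusted P = 0.000449), and by 6 h the gene was back up by 0.67 ± 0.14 against 1 h (adjusted P = 0.00286). With normexp background correction the change at 1 h was -0.39 and was not called.

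Znf503, the Nolz1 repressor of neural development, gave 172%, 195% and 200% at 0 h and 102%, 127% and 94.2% at 1 h. The groups did not overlap, and the log2 change was -0.82 ± 0.12 (adjusted P = 0.00189). With both probes of the gene averaged it was -0.23 and was not called.

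Zfp51, listed as Zfp54 in the current table, and its neighbour Zfp53 lie close to each other on chromosome 1. The signal of Zfp51 went from 42.5%, 36.9% and 46.8% at 0 h to 29.2%, 23.8% and 20.6% on the 1 h arrays, a log2 change of -0.79 ± 0.13 (adjusted P = 0.00305). That of Zfp53 went from 72.1%, 79.0% and 88.0% to 58.9%, 57.2% and 50.6%, a change of -0.52 ± 0.09 (adjusted P = 0.00645). For both genes every 1 h array was below every 0 h array, and both were lower at 9 h as well, by -0.53 and -0.34.

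Zfp455, by contrast, crossed its starting level. It read 42.4%, 47.3% and 43.8% on the 0 h arrays, 36.2%, 29.0% and 20.5% at 1 h and 65.5%, 59.1% and 57.5% at 6 h. Its 6 h arrays lay above those of 0 h and its 1 h arrays below, with the rise over 1 h at 1.12 ± 0.16 (adjusted P = 0.000283) and the difference between 6 h and 0 h, 0.45 ± 0.16, short of a call (adjusted P = 0.0546). Zfp157 and Zfp472 likewise fell at 1 h, by -0.58 ± 0.09 and -0.65 ± 0.11, and were higher than 1 h in all 3 later comparisons. Zfp105, with the finger probe shown above, moved from 224%, 264% and 226% to 193%, 188% and 192%, a small change of -0.31 ± 0.08 (adjusted P = 0.0402), and its other probe moved by 0.58 and 0.61 against 0 h on the last 2 time-points, where the reported one gave -0.02 and -0.00. Zfp354a (Kid1), a KRAB repressor first described in rat kidney, fell by -0.46 ± 0.10 at 1 h and was still lower at 9 h, by -0.40 ± 0.10.

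**Figure D3:**
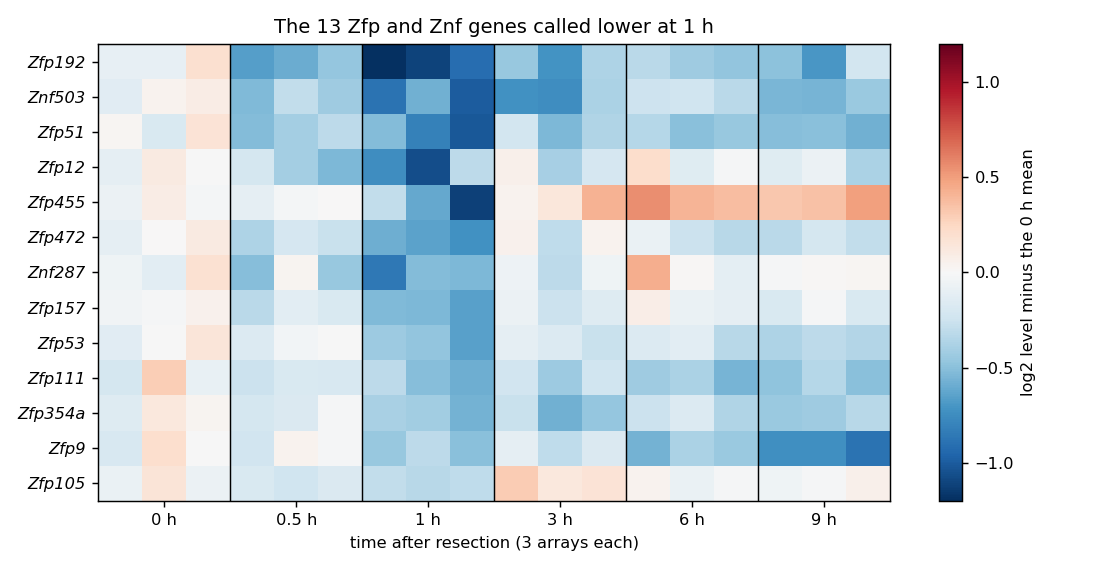
Colour map of the 13 members called lower at 1 h, which were chosen for that change (rows, ordered by it), on the 18 arrays (columns, 3 per time-point). Colour gives the log2 level minus the mean of the 0 h arrays, blue below and red above; at 1 h all 13 are blue, whereas at 6 h and 9 h Zfp455 is red and Zfp9 remains blue.

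Of these 13 genes, 11 lay within 500 kb of another member on rn4, although only 83 of the 174 tested members did. Of the 91 tested members with no such neighbour 2 were lower at 1 h, Zfp9 and Znf503. The 11 were spread over 7 chromosomes, 1, 2, 7, 8, 10, 12 and 17, and only Zfp51 and Zfp53 were near each other within the set. Without 0 h array 2 or without 0 h array 3 the split was 5 with a neighbour and 1 alone, with normexp background correction 1 and 1, and with the median scaling 17 and 5. This split was noticed in these data and no test was made of it. The members called lower at 9 h divided into 13 with a neighbour and 11 without.

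The share of lower calls at 1 h stayed above that of all genes when arrays were left out, at 3.45% of the members against 0.806% of all genes without 0 h array 2, and 3.45% against 1.1% without 0 h array 3. With normexp background correction it was 1.15% against 0.169%, on 2 members. A fit on only the 6 arrays of 0 h and 1 h turned the balance of calls, giving 5 members lower and 13 higher, or 2.87% and 7.47%, beside 1.09% and 8.57% of all genes. All 13 genes kept a change below 0 in each of these fits, which supports nothing, since they were chosen for that sign. The fit on 6 arrays estimates the same change, with a median of -0.636 for the 13 in both. Against 1 h, within the same scan day but for 9 h array 3, 16 members had risen and 8 fallen by 3 h (5.58% and 4.57% of all genes). Without 3 h array 2 those fallen by 3 h were 2 (2.02% of all genes), and without any 1 of 5 other arrays they were 5 (3.12% to 3.81%). Without 3 h array 3 those risen were 10 (3.12%). By 6 h 22 members stood higher than at 1 h, beside 11.4% of all genes, and 16 lower, beside 12.6%. By 9 h the members higher than at 1 h were 19 (11.7% of all genes) and those lower 15 (13.7%).

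Among the falls that lasted, 6 members were lower on all 3 of the last time-points, namely Zfp192, Zfp260, Zfp354c, Zfp386, Znf579 and Znf689, or 3.45% of the members beside 3.51% of all genes. At 6 h and 9 h, which share the 0 h arrays, 15 members were lower in both, 15 of the 19 of 6 h and 15 of the 24 of 9 h, which is 8.62% of the members beside 10% of all genes. Markers of other cells moved over the same hours. Of 8 fibroblast markers 5 were lower at 9 h, with a median change of -0.48 and a summed level going from 1319 to 1401 at 0 h down to 914 to 968, and 2 of 8 endothelial markers were lower, while of 9 macrophage markers 3 were higher and 1 lower than at 0 h and 6 higher than at 1 h. Their part in the late falls was not tested. The largest fall at 9 h among the named genes was that of Zfp365.

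Zfp365, also known as DBZ, which is known in centrosomes and oligodendrocytes, stayed level until 3 h and then declined. It read 155%, 143% and 165% on the 0 h arrays, 149%, 131% and 132% on the 3 h arrays, 104%, 97.5% and 88.7% at 6 h and 92.5%, 83.4% and 71.9% at 9 h. All arrays of 6 h and 9 h lay below all earlier ones. The log2 change was -0.67 ± 0.12 at 6 h (adjusted P = 0.00115) and -0.91 ± 0.12 at 9 h (adjusted P = 9.69e-05), and against 1 h it was -0.76 ± 0.12 at 9 h.

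Zfp423, a partner of Ebf factors known in fat cell commitment and BMP signalling, followed the same course. Its signal was 42.9%, 47.6% and 42.7% on the 0 h arrays, 31.0%, 27.1% and 29.2% at 6 h and 23.2%, 27.3% and 30.2% at 9 h. The late arrays did not overlap those of 0 h, with a change of -0.61 ± 0.11 at 6 h (adjusted P = 0.00099) and -0.73 ± 0.11 at 9 h (adjusted P = 0.000196). Znf23, now Zfp612, fell by -0.48 ± 0.10 at 6 h and -0.68 ± 0.10 at 9 h, and its other probes were called lower at 9 h too.

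Znf467, a factor known to steer mesenchymal cells towards fat, showed the largest fall of the named genes and a different course. It read 283%, 284% and 345% on the 0 h arrays, 150%, 110% and 156% on the 3 h arrays, 262%, 265% and 265% at 6 h and 229%, 222% and 156% at 9 h. The 3 h arrays lay below those of every other time-point except 9 h, and the 6 h arrays were close to the lowest of 0 h. The log2 change was -1.14 ± 0.16 at 3 h (adjusted P = 0.000462), -0.20 ± 0.16 at 6 h (adjusted P = 0.393) and -0.60 ± 0.16 at 9 h (adjusted P = 0.0118).

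Zfp444 was likewise lowest at 3 h, at 111%, 94.7% and 125% against 181%, 245% and 186% on the 0 h arrays, a change of -0.88 ± 0.13 (adjusted P = 0.000584). By 9 h it read 178%, 172% and 206%, overlapping 0 h. The mean of its 2 probes changed by -0.34 at 3 h and was not called.

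Of the other named falls, Zfp354c, a KRAB repressor of the Kid family, read 19.1%, 22.8% and 19.8% at 0 h and 11%, 11.7% and 11.5% on the 9 h arrays, a change of -0.85 ± 0.14. Zfp9 fell by -0.79 ± 0.11, Znf689 by -0.76 ± 0.11 and Zfp260, an activator described in the heart, by -0.72 ± 0.13 at 9 h. For these 4 genes the 9 h arrays lay below all the 0 h arrays. The other probe of Zfp260 fell at 9 h as well, by -0.97.

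The largest rise was a pulse of Zfp189, a KRAB zinc finger gene known from work on stress resilience in the cortex. Its signal was 45.5%, 39.6% and 36.3% on the 0 h arrays, 49.0%, 35.7% and 38.9% on the 1 h arrays, 143%, 127% and 109% at 3 h and 59.5%, 50.7% and 51.7% at 6 h. The 3 h arrays stood above every other array of the series. The log2 change was 1.64 ± 0.17 against 0 h, or 3.12-fold (adjusted P = 3.68e-05), and 1.62 ± 0.17 against 1 h within the scan day (adjusted P = 9.52e-05). At 6 h the difference from 0 h was 0.42 ± 0.17 (adjusted P = 0.0833).

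Zfp281, a factor of GC-rich promoters known for its part in pluripotency, rose at 3 h and stayed up. It read 242%, 240% and 272% on the 0 h arrays, 397%, 495% and 484% on the 3 h arrays, 503%, 464% and 419% at 6 h and 405%, 348% and 410% at 9 h. The arrays up to 1 h and those from 3 h on did not overlap. The changes from 3 h to 9 h were 0.86 ± 0.10, 0.88 ± 0.10 and 0.62 ± 0.10, and against 1 h they were 0.85, 0.87 and 0.61, all called.

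**Figure D4:**
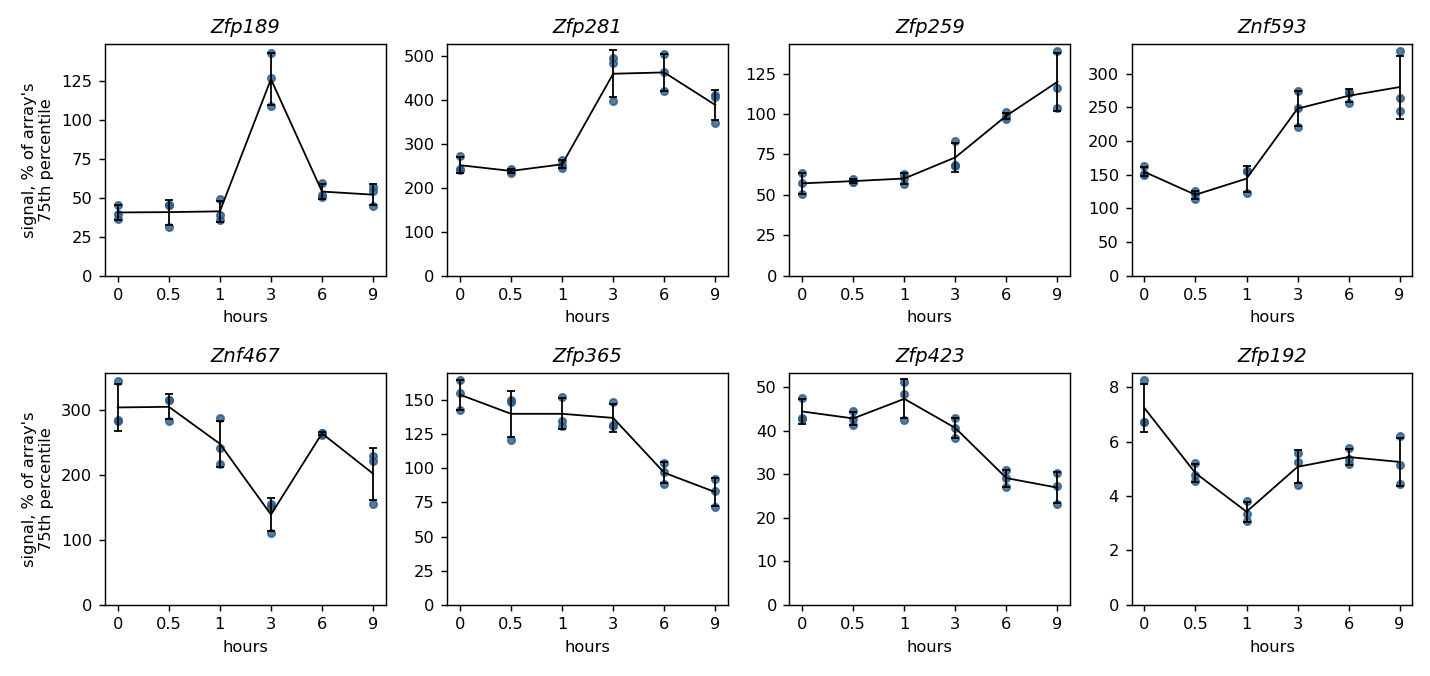
Signal of 8 named members as percent of each array's 75th percentile (vertical axes, starting at 0, linear) by hours after resection (evenly spaced steps, not to scale). Points are single arrays, and lines join means with SD bars (n = 3); Zfp189 stands at 109% to 143% at 3 h alone, Zfp281, Zfp259 and Znf593 are highest from 3 h or 6 h on, and Zfp365 and Zfp423 are lowest at 9 h.

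Higher at each of the last 3 time-points were 6 members, or 3.45% beside 4.57% of all genes. A list of genes whose products are known to work outside DNA binding was chosen with earlier results of these data known, so that its counts support nothing, and 9 of its genes were tested. At 6 h 4 of the 9 were higher and none lower, Zfp207, Zfp259, Znf593 and Znf598, beside 12% of all genes higher, and at 9 h 3 were higher, the same but for Zfp207, beside 15.8%. The median log2 change of the 9 was 0.32 at 6 h and 0.26 at 9 h. The genes of the list not called then were Zfp330, Zfp346, Zfp91, Znf622 and Znf830.

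Zfp259 (Zpr1), a protein that binds the EGF receptor and a translation elongation factor, read 63.6%, 50.6% and 57.1% on the 0 h arrays, 99.1%, 97.1% and 101% at 6 h and 116%, 104% and 139% at 9 h. The late arrays were all above those of 0 h, the change at 9 h was 1.07 ± 0.12 (adjusted P = 2.25e-05), and the second probe rose by 0.68. Znf593, the relative of a yeast factor of ribosome assembly, read 151%, 149% and 162% at 0 h and 264%, 244% and 333% on the 9 h arrays, a change of 0.85 ± 0.13 (adjusted P = 0.000222). It was up at 3 h and 6 h too, and its second probe rose by 1.2, 1.41 and 1.29 on these 3 time-points. Znf598, the ligase that marks collided ribosomes, read 886%, 995% and 851% at 0 h and 1290%, 1360% and 1350% on the 6 h arrays, a change of 0.55 ± 0.10 (adjusted P = 0.00139).

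Early rises were few. Zfp36l3, the mRNA decay gene, read 12.5%, 12.3% and 11.5% at 0 h and 28.7%, 29.9% and 46.4% on the 0.5 h arrays, a change of 1.49 ± 0.19 within 1 scan day (adjusted P = 0.000565), and was higher at every later time-point. Znf575 read 75.9%, 81.3% and 85.5% on the 0 h arrays, 111%, 109% and 132% at 0.5 h and 152%, 124% and 156% on the 1 h arrays, and was likewise called higher at all 5. Zfp819, a KRAB gene, read 4.41%, 4.51% and 3.97% at 0 h and 9.84%, 10.8% and 11.1% on the 3 h arrays, a change of 1.30 ± 0.16 (adjusted P = 0.000112).

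Znf787, read by the finger probe shown above, went from 24.3%, 17.5% and 23.7% to 54.0%, 37.8% and 33.6% on the 0.5 h arrays, a change of 0.92 ± 0.19 (adjusted P = 0.0147). It was not called at later time-points, nor at 0.5 h with normexp background correction, in a fit on 6 arrays, or when 0 h array 2 or 0.5 h array 1 was left out (0.72 to 1.07 over all arrays left out in turn). Zfp2, read by the linker probe, was higher at 0.5 h, 6 h and 9 h, by 0.82 ± 0.20, 0.84 ± 0.20 and 0.63 ± 0.20, with -0.03 ± 0.20 at 1 h. Its call at 6 h was lost with normexp background correction, at 0.68, and with scaling to the median, at 0.70. For comparison, 9 of 10 immediate early genes were higher at 0.5 h, by a median of 1.93.

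Of the remaining named rises, Znf655, a KRAB protein that binds Vav1, rose by 0.61 ± 0.17 at 6 h (adjusted P = 0.0183), was not called with 0 h array 1 or 2 or 6 h array 1 or 2 left out, with normexp background correction or with scaling to the median, and stood 1.02 ± 0.17 above 1 h. Zfp202, a repressor of lipid genes, reached 0.44 ± 0.13 at 9 h (adjusted P = 0.0146), was not called without 0 h array 1, 0 h array 3 or 9 h array 3, with either of these settings or in a fit on 6 arrays, and stood 0.80 ± 0.13 above 1 h. For both, the difference from 1 h was thus larger than that from 0 h.

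Of 9 tested factors of glia and neurons 4 changed over time, beside the 34.6% of all genes. None was called against 0 h up to 3 h, Zfp423 was lower at 6 h, and Zfp423 and Znf292 were lower at 9 h. The choice of probe mattered for Zfp462, also on this list. Another of its probes changed by 0.73 at 1 h and 0.74 at 3 h, where the reported one gave -0.01 and -0.03. Zfp191, which oligodendrocytes need to make myelin, and Zfp110, a partner of the p75 neurotrophin receptor, differed from 0 h by -0.20 and 0.14 at 9 h and were not called. Against 1 h Zfp191, Zfp423 and Znf536 were lower at 6 h, by -0.36, -0.70 and -0.89, Zfp191, Zfp423 and Znf292 were lower at 9 h, and Zfp110 was higher at 3 h, by 0.38. The 1 h arrays of Znf536 were uneven, at 316%, 251% and 522%. Its 6 h change against 0 h was -0.32 and was not called. Of the 14 Schwann cell markers 5 were lower and 2 higher at 9 h.

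Among 10 activators and factors of wide expression only Zfp281 was called against 0 h. Zfp143, the activator of many housekeeping and small RNA genes, differed by -0.41 at 1 h and 0.28 at 6 h from 0 h without a call and was higher than 1 h at 6 h and 9 h. Zfp148 stayed between -0.14 and 0.07. Of 3 tested genes of imprinting and transposon silencing, Zfp445 was higher at 3 h (0.33) and lower at 9 h (-0.34), while Zfp57 and Zfp568 were not called at any time.

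The corepressor machinery that KRAB proteins recruit was measured beside them. Of 25 tested genes 11 changed over time, beside 34.6% of all genes. None was called at 0.5 h, and Atf7ip, a partner of Setdb1, was higher at 1 h by 0.41. At 3 h 2 were lower and none higher, beside 6.85% and 7.16% of all genes. By 6 h the calls were 2 up and 3 down (12% and 13% of all genes) and by 9 h 1 up and 3 down (15.8% and 15.4%). The median changes from 3 h to 9 h were -0.16, 0.04 and 0.02. Trim28 itself changed by -0.10, 0.12 and 0.41 at those times and was called against 0 h at none of them, but it was called over time (F-test, adjusted P = 0.0265). Cbx1, an HP1 protein, was lower on the same 3 time-points by -0.33, -0.38 and -0.28, and Suv39h1, a histone H3 methyltransferase, was higher at 6 h and 9 h by 0.38 and 0.39. Dnmt3a, a DNA methyltransferase, was lower at 3 h and 6 h by -0.51 and -0.45, whereas Dnmt3b, another DNA methyltransferase, was higher at 6 h by 0.50. The other calls against 0 h were Rbbp4, lower at 6 h and 9 h, and Cbx3, lower at 9 h.

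Other zinc finger families are given side by side, with no test of the difference. Over time 7 of 26 Zbtb genes changed, 8 of 19 Klf and Sp genes, none of 5 Zscan and Zkscan genes and 5 of 10 Zfhx, Zhx, Zmiz and Zeb genes, beside 56 of 174 here. The families were taken by name, and the names also took in Zbtb8os and Sp110, which are not factors of these families. Neither was called over time, though both were called lower at 9 h than at 0 h, with changes of -0.41 and -0.64.

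Among the 55 members called over time and well above background on all 18 arrays, the lowest mean was at 1 h in 18, at 9 h in 13 and at 0.5 h in 9. The highest mean was that of 0 h in 15 of them and that of 6 h in 9. For members with more than 1 probe the choice of probe mattered in places. The other probe of Zfp37 changed by 1.48 at 6 h and was called where the brighter one gave -0.12 and was not.

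RefSeq promoter windows on GRCr8, from 250 bases before to 50 after the start, were found for 150 of the 183 members. In 80.7% of them at least 10 CG pairs were present, against 55.0% of 19005 protein-coding genes. The ETS motif CCGGAAGT was in 12.7% (4.99% of all), the NRF1 motif GCGCATGCG in 6.00% (2.03%), the YY1 motif ATGGCGGC in 6.67% (3.54%), the E-box CACGTG in 10.7% (7.27%) and the AP-1 motif TGAGTCA in 3.33% (4.13%), counted on both strands. The Sp and Klf motif CCCCGCCC was in 22% (20.8%), the CREB and ATF motif TGACGTCA in 2% (2.22%), and the NF-kB motif GGGACTTTC and the SRF motif CCATATTAG in none (0.353% and 0.116%). The windows were short, and a match is a description only.

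Both promoters shown are those of a gene that fell, Zfp260, and of one that rose, Zfp819, as examples of these motifs. Capitals mark the ETS and NRF1 motifs in Zfp260, where the NRF1 motif overlaps its own reverse, and the E-boxes in Zfp819.
Zfp260 promoter, GRCr8 chr1:94469611-94469910, plus strand: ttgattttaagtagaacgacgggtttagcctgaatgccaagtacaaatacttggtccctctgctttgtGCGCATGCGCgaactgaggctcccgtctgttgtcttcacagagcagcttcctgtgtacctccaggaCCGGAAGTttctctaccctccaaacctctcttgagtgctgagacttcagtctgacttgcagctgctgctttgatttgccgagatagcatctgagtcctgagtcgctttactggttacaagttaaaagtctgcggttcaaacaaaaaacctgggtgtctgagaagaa
Zfp819 promoter, GRCr8 chr1:103174554-103174853, plus strand: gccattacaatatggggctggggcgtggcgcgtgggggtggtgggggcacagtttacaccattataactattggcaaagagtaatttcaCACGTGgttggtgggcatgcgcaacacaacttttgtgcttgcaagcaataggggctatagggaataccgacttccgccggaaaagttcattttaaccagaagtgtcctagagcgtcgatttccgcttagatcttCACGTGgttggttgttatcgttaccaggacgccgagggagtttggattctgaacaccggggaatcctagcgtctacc
Of the 9 members lower at 1 h with a promoter window, 1 each held the ETS, AP-1, Sp and Klf, and YY1 motifs. Of the 15 members higher at 3 h, 6 h or 9 h with a window, 4 held the E-box and none the AP-1 motif. The Sp and Klf and the YY1 motifs were in 2 each, and the ETS, NRF1, and CREB and ATF motifs in 1 each. Znf787, called higher only at 0.5 h and so outside this set, held 2 AP-1 motifs.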

How the data were processed

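RNA of proximal nerve segments was measured on 18 Agilent 1-colour rat arrays. The authors deposited scanner output of Feature Extraction 10.5.1.1 (another version is named in their methods), whose processed signal is a linear intensity with background and spatial trends already removed, on rn4. The authors also deposited a log2 matrix, which ranks the probes of each array as the scanner output does and which was used as an alternative.

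After removal of control spots and of spots marked as outliers, each array's 75th percentile was subtracted from its log2 processed signals and replicate spots were averaged, giving 41012 probes. The 32110 probes detected above background in every replicate of some time-point were tested with limma 3.58.1 in R 4.3.3, all 18 arrays in 1 model. The number of arrays limits the precision. Signals close to background can understate the fold of dim genes. On simulated data for 6 h against 0 h, with 200 of 32110 probes changed, 73.0% of those changed 2-fold and 90.0% of those changed 4-fold were called.

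The brightest probe stood for each gene, and levels are given as percent of the 75th percentile. Named genes are the 12 largest falls and 12 largest rises against 0 h among members that passed the F-test, were detected on all 18 arrays and had the 3 arrays of a called time-point wholly on one side of those of 0 h. Genes of the Zfp lists and the corepressor list are named besides these. Genes named for their calls at 1 h, on all of the last 3 time-points or for probes that disagreed were chosen after their values were seen. The members and the lists, including the cell type markers, were chosen with earlier results of these data known. Equal replicate numbers were not treated as pairs in the main fit. After removal of time-point means, 15 of 45 same-number pairs of arrays correlated above 0.1, as did 24 of 90 pairs of different number. The median correlations were 0.037 and -0.007, and such counts cannot exclude a pairing. Promoters came from the RefSeq table for GRCr8, and protein sequences were not used here. Tried as alternatives were quantile and median scaling, normexp background correction with an offset of 50, the deposited matrix, other filters, blocks for replicate number, slide and scan day, array weights, fits on 6 arrays, the mean of a gene's probes, and each array left out in turn.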

Additional observations from a re-analysis of the deposited data

How the results depend on the processing

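Medians stayed within 0.25 of 0 under the alternatives run, except for normexp background correction at 3 h. That correction gave 23 members over time, 0, 3, 14, 8 and 16 against 0 h from 0.5 h to 9 h, 8, 11 and 12 against 1 h from 3 h to 9 h, and medians of 0.42 at 3 h and -0.11 at 9 h, all genes shifting by 0.44 at 3 h. Scaling to the median gave 16 members at 0.5 h and 26 at 1 h, and medians of -0.21, -0.15, -0.17, -0.16 and -0.20 from 0.5 h to 9 h. At 0.5 h and 1 h it called 4.98% and 4.90% of all genes lower and 2.64% and 2.89% higher. At 6 h the median was -0.11 with quantile normalization, -0.10 with the deposited matrix and 0.069 with the mean of the probes of a gene. Without a filter on dim probes 5 members were called at 0.5 h, and with only the probes detected on every array 13. Of all genes 0.95% were then lower and 3.80% higher without the filter, and 2.88% and 5.56% with only those probes. Array weights gave 22, 28 and 43 members from 0.5 h to 3 h and 58 at 9 h, and against 1 h they gave 37 at 3 h and 59 at 9 h, while at 9 h they called 22.1% of all genes lower and 18.6% higher than at 0 h, up from 15.4% and 15.8%. Fits on only the 6 arrays of a contrast gave 2 at 0.5 h, 18 at 1 h (13 higher and 5 lower, where the fit on all arrays gave 3 and 13), 11 at 3 h, and 2, 15 and 16 against 1 h from 3 h to 9 h. Of all genes they called 0.28%, 1.09% and 2.67% lower than at 0 h from 0.5 h to 3 h and 3.41%, 8.57% and 5.71% higher. Against 1 h they called 0.37%, 5.53% and 6.36% lower and 0.90%, 6.53% and 7.13% higher. For these shifts the cause was not tested.

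With each array left out in turn, the members called ranged from 1 (without 0 h array 2) to 13 (without 1 h array 3) at 0.5 h, 9 to 20 at 1 h, 11 (without 3 h array 2) to 32 at 3 h, 24 (without 9 h array 3) to 44 at 9 h, and 15 to 26 at 3 h against 1 h. With the replicate number as a block 55 members were called over time and 8, 16, 28, 30 and 40 at 0.5 h to 9 h, all within 1.5 times of the counts without it. The slide as a random block, and scan day as a block where it could be fitted, also stayed within 1.5 times. Of 24 named genes 13 kept their call under every alternative and none changed direction. With normexp background correction Zfp192, Zfp2, Zfp202, Zfp354c, Zfp36l3, Zfp51, Znf598, Znf655 and Znf787 lost it.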
